A study of Mus musculus with 8 samples.

Results

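The FoxO transcription factors *Foxo1*, *Foxo3*, *Foxo4* and *Foxo6* and the kinases *Akt1*, *Akt2*, *Sgk1* and *Sgk3*, which phosphorylate them, were followed in kidney RNA of diabetic mice given recombinant FGF4 (rFGF4) or vehicle. The 8 genes were taken by symbol from a table of 55401 genes, and each symbol was found once. The comparison addresses whether rFGF4 treatment goes with a different transcript level of these factors and kinases in the diabetic kidney. The 8 libraries comprised 4 from rFGF4-treated mice (numbered 1, 2, 3 and 5) and 4 from vehicle-treated mice (numbered 2, 3, 4 and 5), which the labels call the *db*/*db* model. The labels give the *db*/*db* genotype for these 4 only, and for the rFGF4 libraries only the treatment. No label names the vehicle, which is taken from the study's text. Mice of the *db*/*db* genotype lack a working leptin receptor and become obese and diabetic. The study's text instead describes the sequenced animals as diabetic through streptozotocin, a toxin of pancreatic beta cells. The columns of the vehicle group are also named db in the deposited data. The expression values were not used to decide between these models, and no non-diabetic mice are among the libraries. For both models the study's schemes give male mice and N-truncated human rFGF4, or PBS as vehicle, at 1.0 mg/kg body weight by intraperitoneal injection every other day for 8 weeks from 12 weeks of age. RNA came from kidney tissue with its cell types mixed, so that fewer cells of a type and less RNA per cell cannot be told apart. The labels do not state that each library came from a separate animal, and p-values measure the spread between these libraries.

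FoxO proteins are forkhead transcription factors that act in the nucleus on genes of gluconeogenesis, cell cycle arrest, apoptosis, autophagy and defence against oxidants. When insulin or a growth factor activates PI3K, PDK1 and mTORC2 activate AKT and SGK kinases, which phosphorylate FoxO proteins. The phosphorylated proteins bind 14-3-3 proteins and stay in the cytosol, away from their target genes. AMPK phosphorylates FoxO proteins at other sites. In the kidney, *Sgk1* is known best as the aldosterone-induced kinase that raises sodium uptake through the epithelial sodium channel ENaC. Transcript levels do not show this phosphorylation.

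FoxO proteins bind DNA at a forkhead element, whose core was searched here as the letters GTAAACA, and at insulin response sequences, searched as CAAAACA. Both strands were read in windows from 250 bases before to 50 bases after each annotated start in RefSeq (GRCm38.p6), and where both occur in a row they can share up to 2 bases. Of 27025 genes with a window, 10.8% held at least 1 of the motifs. Windows were found for 36 of 44 listed FoxO target genes, and 9 of these genes (25%) held a motif. Among the 8 factors and kinases, windows were found for 5, and *Akt1* alone held a motif. The matches of *Txnip* and *Igfbp1* are shown because these targets differed between the groups (values given further on), *G6pc* and *Bcl2l11* are shown as targets with a match whose difference did not pass, and *Akt1* as the only kinase with a match. Capitals mark the motif, read 5′ to 3′ on the strand of the gene.
*Txnip*, chr3:96557816-96557862, plus strand: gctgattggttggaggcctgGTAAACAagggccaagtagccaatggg
*Igfbp1*, chr11:7197659-7197705, plus strand: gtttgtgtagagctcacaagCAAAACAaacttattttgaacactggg
*G6pc*, chr11:101367522-101367568, plus strand: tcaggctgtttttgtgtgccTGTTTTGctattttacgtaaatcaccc
*Bcl2l11*, chr2:128125791-128125837, plus strand: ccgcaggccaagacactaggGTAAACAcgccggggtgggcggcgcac
*Akt1*, chr12:112675019-112675065, minus strand: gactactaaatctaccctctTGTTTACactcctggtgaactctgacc
In *G6pc* and *Akt1* the motif lies on the opposite strand, so its reverse complement is printed. A match describes the letters of the window and does not show that a FoxO protein binds there.

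The deposited unit was FPKM, in which sequenced fragments are divided by the length of the transcript and by the size of the library, so that levels of different genes can be compared per length. No counts are given, so sequencing depth is unknown. Summed over all genes, the libraries held 389404 to 552600 FPKM. The libraries of rFGF4 mouse 1 and vehicle mouse 5 stood apart. They lay at -64.6 and -60.1 on the first principal component, which held 54.5% of the variance, and the other 6 lay between -16.0 and 44.3. The sum of 6 macrophage genes (*Adgre1*, *Cd68*, *Csf1r*, *Cd74*, *C1qa* and *Lyz2*) was 1772 FPKM in rFGF4 mouse 1 and 2631 FPKM in vehicle mouse 5, against 97.6 to 921 FPKM in the other 6. The defining genes of the kidney were present in every library, with summed FPKM of 668 to 2434 for 8 proximal tubule genes and 59.1 to 134 for 8 podocyte genes. Some marker lists leaned to one side, though the sums of the groups overlapped. The log2 change was above 0 in 8 of 8 podocyte genes (median 0.41), beside 67.1% of all tested genes. Of the podocyte genes, 1 had an unadjusted p under 0.05, beside 4.62% of all tested genes. The podocyte sums were 85.1 to 134 FPKM under rFGF4 and 59.1 to 113 FPKM under vehicle. The log2 change was below 0 in 5 of 5 red blood cell genes (median -1.97), with 0 at an unadjusted p under 0.05. Their sums were 120 to 2657 FPKM under rFGF4 and 1139 to 4325 FPKM under vehicle. Both directions were the same under the other scalings, and the part of these cells in the differences given below was not tested. Other marker lists depended more on the scaling. Of 6 endothelial genes, 5 were below 0 (median -0.20) with 1 at an unadjusted p under 0.05, against 6 with a common median ratio (median -0.30, with 2 such genes) and 4 at the same FPKM sum. Of 8 proximal tubule genes, 6 were below 0 (median -0.30), against 8 with a common median ratio (median -0.42) and 4 at the same FPKM sum. The 6 macrophage genes were all above 0 as deposited (median 0.39) and under both scalings, with 0 at an unadjusted p under 0.05. Both lists turned with a block for shared mouse numbers. There 7 of 8 proximal tubule genes were above 0 (median 0.33), and 0 of 6 macrophage genes were (median -0.73). The median of the podocyte genes was 0.14 with that block. Without rFGF4 mouse 1 and vehicle mouse 5, 4 proximal tubule genes were below 0 (median 0.04) and 6 of 6 macrophage genes above 0.

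Differences were tested on log2(FPKM + 1) with limma in 15150 genes, those with at least 0.5 FPKM in at least 4 libraries. Of the 8 genes, 7 were tested, and *Foxo6* was too low. The study called genes at an unadjusted p under 0.05 if they also differed by 1.5-fold upward or to 0.67 of the vehicle level. This threshold was passed by 1.52% of the tested genes, 165 of them higher and 66 lower in rFGF4-treated mice. This split depended on the scaling, with 93 higher and 85 lower when every library was divided by the median ratio of its genes to their geometric mean over libraries (a common median ratio), and 507 higher and 24 lower when they were scaled to the same FPKM sum. Over all tested genes the log2 change had a median of 0.09, which the former scaling moved to -0.01 and the latter to 0.26. An unadjusted p under 0.05 was found in 4.62% of genes (3.56% higher and 1.06% lower), and an adjusted p under 0.05 in 0 genes (smallest 0.918, limma with Benjamini-Hochberg adjustment).

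*Foxo3*, which is linked to atrophy, autophagy and antioxidant genes, had the highest transcript level of the FoxO factors. With all libraries and no block for shared mouse numbers it had the smallest p of them, but with that block the p of *Foxo1* was smaller. The *Foxo3* gene lies on the minus strand of chromosome 10 of GRCm38, from 42181841 to 42276755. Its FPKM was 13.0, 15.5, 18.8 and 12.9 in rFGF4 mice 1, 2, 3 and 5, and 10.8, 10.4, 9.42 and 12.3 in vehicle mice 2, 3, 4 and 5. All rFGF4-treated mice lay above all vehicle-treated mice, although rFGF4 mice 1 and 5 were only slightly above vehicle mouse 5. This separation held only as deposited: with a common median ratio *Foxo3* was 10.2 in rFGF4 mouse 1, below the vehicle range of 10.3 to 11.8, and at the same FPKM sum rFGF4 mouse 5 (12.01) was below vehicle mouse 5 (12.6). Of all tested genes, 3.33% had groups that did not overlap, and 2.66% had every rFGF4-treated mouse above every vehicle-treated mouse. The means were 15.1 ± 2.76 FPKM (SD, n = 4) and 10.7 ± 1.19 FPKM (SD, n = 4), a ratio of 1.40. The log2 change of *Foxo3* was 0.44 (standard error 0.15, limma unadjusted p = 0.0164, adjusted p = 0.918), and the two-sided exact permutation test gave p = 0.0286, the smallest that 4 against 4 allows. The change was below the 1.5-fold of the study's threshold. With a common median ratio it was 0.32 (limma unadjusted p = 0.0994), and at the same FPKM sum it was 0.65 (limma unadjusted p = 0.00888), above that fold. Relative to the median of all tested genes, the log2 change of *Foxo3* was 0.36 as deposited, 0.34 with a common median ratio and 0.39 after scaling to the same sum. Without rFGF4 mouse 1 and vehicle mouse 5 it was 0.57 (limma unadjusted p = 0.00883).

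*Foxo1*, the FoxO factor of insulin-regulated gluconeogenesis, was nearly constant in vehicle-treated mice and spread widely in rFGF4-treated mice. The gene lies on the plus strand of chromosome 3 from 52268336 to 52353221, where its exons overlap *Gm20402* on the opposite strand, which is listed at 0 in all libraries. Whether reads were counted by strand is not given in the sources used here. Its FPKM was 4.95, 4.93, 4.62 and 4.83 in vehicle mice 2, 3, 4 and 5, and 4.83, 7.10, 10.9 and 6.27 in rFGF4 mice 1, 2, 3 and 5. The rFGF4 mice 2, 3 and 5 were above every vehicle-treated mouse, and rFGF4 mouse 1 was inside their range. On the log2 scale the SD of the vehicle group was 0.038, lower than or equal to that of all but 0.944% of tested genes, and the SD of the rFGF4 group was 0.43, at the 73.2 percentile. The vehicle values ran from 4.44 to 5.43 with a common median ratio, with an SD of 0.10 against 0.56 in the rFGF4 group. The log2 change was 0.46 (standard error 0.21) with limma unadjusted p = 0.0571 and adjusted p = 0.918. Without rFGF4 mouse 1 it was 0.61 (limma unadjusted p = 0.0102), and without rFGF4 mouse 3 it was 0.26 (limma unadjusted p = 0.118). Without both libraries that stood apart it was 0.61 (limma unadjusted p = 0.0196), and with a common median ratio 0.35 (limma unadjusted p = 0.209). At the same FPKM sum it was 0.65 (limma unadjusted p = 0.0162), and there all rFGF4-treated mice (5.82 to 11.6) lay above all vehicle-treated mice (4.19 to 4.94).

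*Foxo4* and *Foxo6* complete the family. *Foxo4*, an X-linked factor of the same DNA specificity (chromosome X, 101254528 to 101260873), had 12.5, 11.2, 9.79 and 9.75 FPKM in rFGF4 mice 1, 2, 3 and 5, and 8.96, 8.34, 9.30 and 10.8 FPKM in vehicle mice 2, 3, 4 and 5. Vehicle mouse 5 lay within the rFGF4 range, and the groups overlapped. The log2 change of *Foxo4* was 0.19 (standard error 0.13, limma unadjusted p = 0.171). *Foxo6* (chromosome 4, 120267079 to 120287349), which is known mainly from brain and liver, was between 0.0175 and 0.0899 FPKM in 7 libraries and listed at 0 in rFGF4 mouse 2. It was below the filter on low values, and in a fit without the filter its log2 change was 0.018 (standard error 0.030, limma unadjusted p = 0.578).

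**Figure D1:**
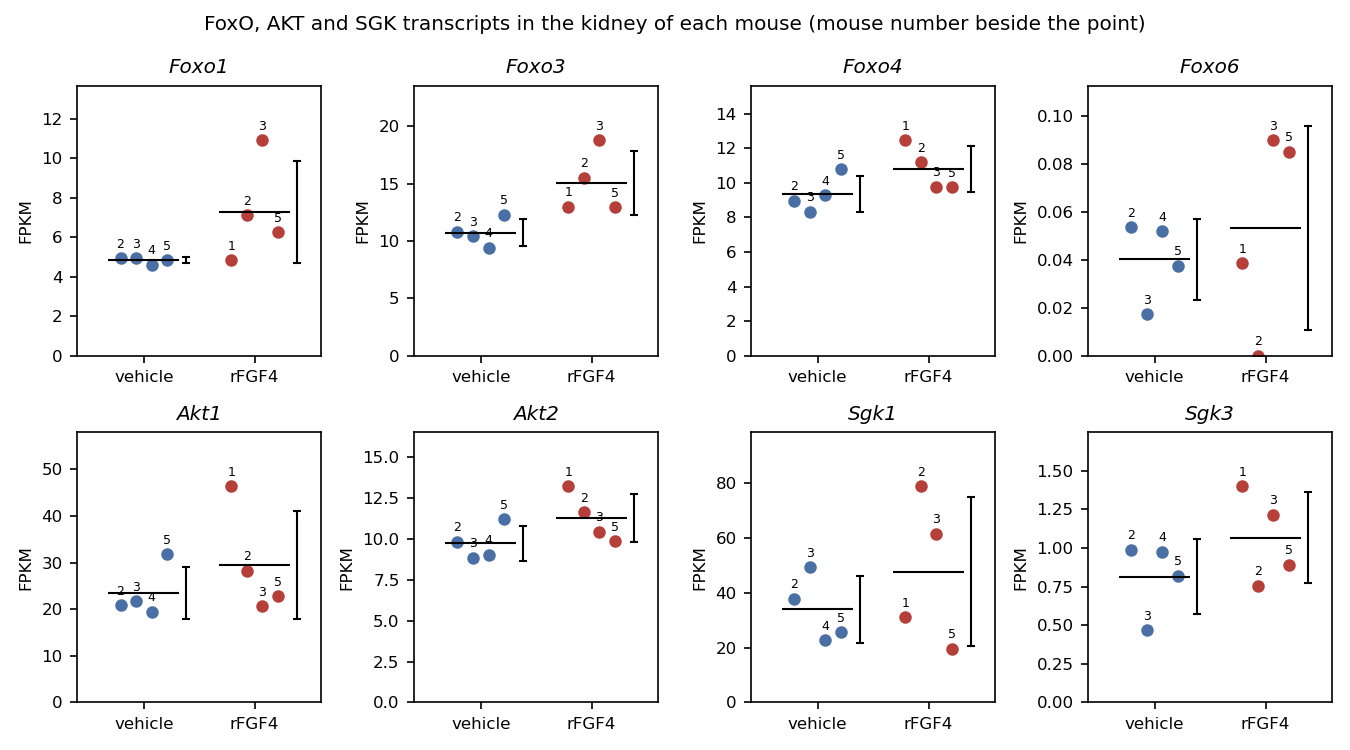
FPKM (vertical axes, starting at 0) of the 8 genes in each library, with the mouse number beside each point; horizontal lines are group means and vertical bars are 1 SD on each side of the mean (n = 4 per group). In *Foxo3* all 4 rFGF4-treated mice lie above all 4 vehicle-treated mice in the values as deposited (not after other scalings), and in the other 7 genes the groups overlap.

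The FoxO transcripts summed to between 29.0 and 39.6 FPKM in rFGF4-treated mice and between 23.4 and 27.9 FPKM in vehicle-treated mice. As deposited the sums of the groups did not overlap, but they did under both other scalings. With a common median ratio the sum was 23.8 in rFGF4 mouse 1, below the vehicle range of 25.0 to 27.2, and 30.9 to 41.1 in the other rFGF4-treated mice. *Foxo3* made up 40.3% to 47.5% of the sum in the 8 libraries. The share of *Foxo1* was 15.9% in rFGF4 mouse 1 and 27.6% in rFGF4 mouse 3, the lowest and the highest of all mice, and *Foxo4* had 41.1% and 24.7% in the same mice. In vehicle-treated mice *Foxo1* made up 17.3% to 20.8% and *Foxo4* 35.2% to 39.8%, narrower ranges than with rFGF4.

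By mean level over the 8 libraries, the order was *Sgk1* (40.9 FPKM), *Akt1* (26.5), *Foxo3* (12.9), *Akt2* (10.5), *Foxo4* (10.1), *Foxo1* (6.06), *Sgk3* (0.939) and *Foxo6* (0.0468). *Akt1* was above *Foxo3*, *Foxo1* above *Sgk3*, and *Sgk3* above *Foxo6* in 8 of 8 mice. *Foxo3* was above *Akt2*, *Akt2* above *Foxo4*, and *Foxo4* above *Foxo1* in 7 of 8. *Akt2* and *Foxo4* differed by less than the SD of either group in either gene. *Sgk1* was above *Akt1* in only 5 of 8 mice, so their order was not settled.

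**Figure D2:**
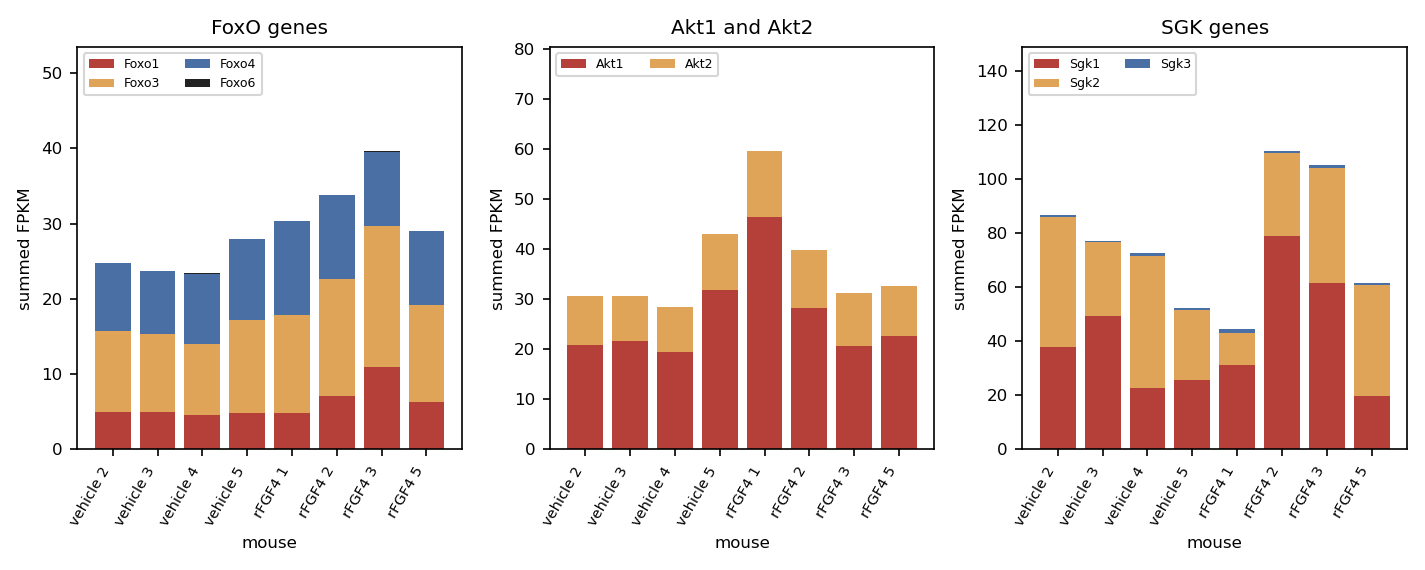
Summed FPKM (vertical axes) of the FoxO genes, of *Akt1* and *Akt2*, and of the SGK genes in each library, with coloured segments for the genes; *Sgk2* is shown beside the member SGK genes. The FoxO sums as deposited are higher in each rFGF4-treated mouse than in any vehicle-treated mouse, which other scalings undo, the sum of *Akt1* and *Akt2* is highest in rFGF4 mouse 1, and the share of *Sgk1* among SGK transcripts runs from 31.4% to 71.5%.

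*Akt1* and *Akt2* did not differ beyond the spread between libraries. *Akt1*, which serves growth and survival signals in most cells, lies on chromosome 12 from 112653821 to 112674884. Its FPKM was 46.3, 28.3, 20.7 and 22.7 in rFGF4 mice 1, 2, 3 and 5, and 20.8, 21.7, 19.5 and 31.8 in vehicle mice 2, 3, 4 and 5. The high libraries were rFGF4 mouse 1, vehicle mouse 5 and rFGF4 mouse 2, and these were also the 3 with the highest sums of macrophage genes, at 1772, 2631 and 921 FPKM. Vehicle mouse 3 had a macrophage sum nearly as high, at 875 FPKM. Its *Akt1* (21.7 FPKM) was below that of rFGF4 mouse 5 (22.7 FPKM), whose macrophage sum was 144 FPKM. The part of other cells in the level of *Akt1* was not tested. For *Akt1* the log2 change was 0.27 (standard error 0.26, limma unadjusted p = 0.327), and without rFGF4 mouse 1 it was 0.040. *Akt2*, the isoform most tied to insulin-stimulated glucose uptake (chromosome 7, 27591552 to 27640826), had 13.2, 11.6, 10.4 and 9.87 FPKM in rFGF4 mice 1, 2, 3 and 5. In vehicle mice 2, 3, 4 and 5 its FPKM was 9.82, 8.85, 9.04 and 11.2. As in *Akt1*, the highest library of each group was the one that stood apart, and the log2 change was 0.19 (standard error 0.13, limma unadjusted p = 0.172). *Akt1* made up 66.5% to 77.8% of the summed FPKM of both genes and was the higher of them in 8 of 8 mice.

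*Sgk1* had the highest mean level of the 8 genes, though not above *Akt1* in every mouse, and a wide spread. The gene (chromosome 10, 21882184 to 21999903) encodes a kinase whose transcript is induced by serum, glucocorticoids and aldosterone within a short time. Its FPKM was 31.1, 78.9, 61.7 and 19.7 in rFGF4 mice 1, 2, 3 and 5, and 37.9, 49.3, 22.8 and 25.8 in vehicle mice 2, 3, 4 and 5. Both the highest values and the lowest value were in rFGF4-treated mice, so the vehicle range lay inside the rFGF4 range. The SD on the log2 scale was 0.89 in rFGF4-treated mice, at the 94.1 percentile of tested genes, and 0.50 in vehicle-treated mice, at the 83.3 percentile. The log2 change of *Sgk1* was 0.35 (standard error 0.44, limma unadjusted p = 0.447), and with 1 mouse left out it ran from 0.05 (without rFGF4 mouse 2) to 0.70 (without rFGF4 mouse 5). A change of the size seen in *Foxo3* could not be told from 0 with this spread.

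*Sgk3*, which is recruited to endosomes by its PX domain, lies on chromosome 1 from 9798107 to 9900845. Its level was low, at 1.40, 0.754, 1.21 and 0.891 FPKM in rFGF4 mice 1, 2, 3 and 5, and 0.988, 0.467, 0.974 and 0.820 FPKM in vehicle mice 2, 3, 4 and 5. The groups overlapped, and the log2 change was 0.19 (standard error 0.15, limma unadjusted p = 0.252). The third family member, *Sgk2*, had 11.97, 30.7, 42.5 and 41.1 FPKM in rFGF4 mice 1, 2, 3 and 5, and 48.0, 27.5, 48.8 and 25.8 FPKM in vehicle mice 2, 3, 4 and 5. The lowest *Sgk2* value was in rFGF4 mouse 1, whose sum of proximal tubule genes was also the lowest, at 668 FPKM against 1362 to 2434 FPKM in the other 7. The log2 change of *Sgk2* was -0.33 (standard error 0.41) and 0.07 without rFGF4 mouse 1.

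Of the 7 tested genes, 7 had a log2 change above 0, beside 67.1% of all tested genes. With a common median ratio it was again 7 of 7, beside 47.5% of all tested genes. An unadjusted p under 0.05 was found for 1 of them, beside 4.62% of all tested genes, and 0 passed the study's threshold. Under some alternatives a member did pass it. These were *Foxo1* and *Foxo3* at the same FPKM sum, and *Foxo1* with array weights and with a block for shared mouse numbers. *Foxo1* also passed without rFGF4 mouse 1, and without rFGF4 mouse 1 and vehicle mouse 5. The 7 genes had a median log2 change of 0.27, beside 0.09 for all tested genes.

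**Figure D3:**
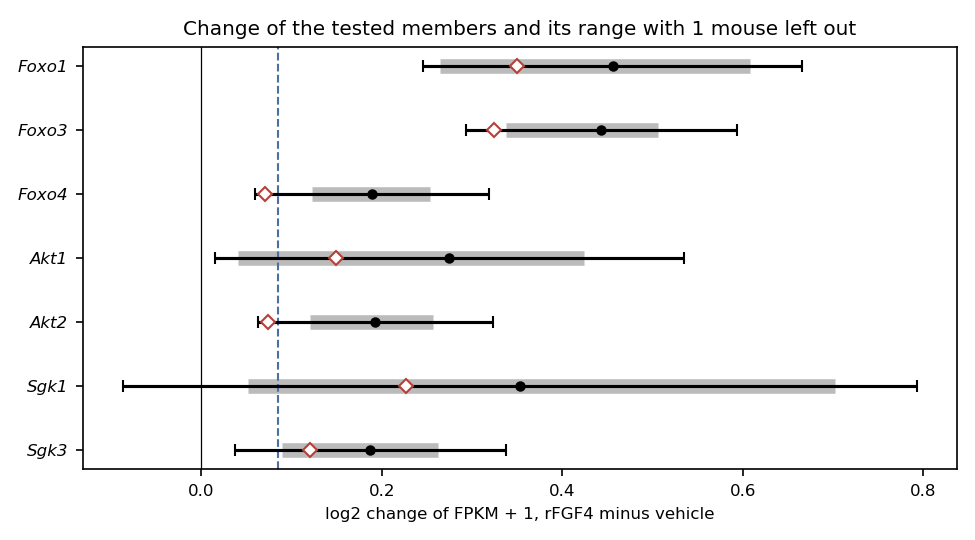
Log2 change of FPKM + 1 (horizontal axis, rFGF4 minus vehicle) of the 7 tested genes; black points and bars are the limma estimate and its standard error, grey bands the range with 1 mouse left out, red diamonds the value with a common median ratio, and the dashed line the median of all tested genes, 0.09. *Foxo1* and *Foxo3* lie farthest from the dashed line, and the widest band is that of *Sgk1*.

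The genes whose pattern over the 8 libraries was most like that of a member were found by the root mean square difference of log2(FPKM + 1) after centring each gene, among 13199 tested genes with a mean of at least 1 FPKM. For *Foxo1* these were *Slc19a1* (difference 0.127), a folate carrier, *Fam102a* (0.145) and *Shld2* (0.145). *Slc19a1* had 13.4, 16.4, 23.4 and 14.3 FPKM in rFGF4 mice 1, 2, 3 and 5 and 13.0 to 14.3 FPKM in vehicle-treated mice, so it was high in the same rFGF4 mouse 3. For *Foxo3* they were *Hyal2* (0.0989), *Dync1li1* (0.105), a light chain of cytoplasmic dynein, and *Coq10b* (0.119), whose exons overlap an antisense gene. *Dync1li1* had between 17.0 and 21.4 FPKM with rFGF4 and between 13.7 and 14.5 FPKM with vehicle. For *Akt1* they were the small nucleolar RNA gene *Gm22579* (0.0583), which lies in an exon of *Taf1d*, the arginine methyltransferase *Prmt1* (0.0597) and the replication helicase subunit *Mcm7* (0.0629), whose exons overlap 4 other genes. For *Sgk1* the likeness was poorer, with *Pim3* (0.270), a growth-factor-induced kinase, *Pcdhgc3* (0.318), which shares exons with other protocadherin genes, and *Tob2* (0.333).

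Upstream of AKT and SGK, the list of PI3K subunits, PDK1, mTORC2 and inhibitors held 19 genes, of which 16 were tested. The log2 change was above 0 in 15 and below 0 in 1 with a median of 0.15, beside 67.1% of all tested genes above 0. With a common median ratio it was above 0 in 9 and below 0 in 7, beside 47.5% of all tested genes above 0. Beside 4.62% of all tested genes, 0 of the 16 had an unadjusted p under 0.05. The smallest p belonged to *Pdpk1*, which encodes PDK1, the kinase that activates AKT and SGK. It had between 2.76 and 3.54 FPKM with rFGF4 and between 2.31 and 2.93 FPKM with vehicle, and its log2 change was 0.23 (standard error 0.12, limma unadjusted p = 0.0915). The log2 change was 0.28 for the catalytic subunit *Pik3cb*, which was 3.02 FPKM in rFGF4 mouse 3 and 0.888 to 1.498 FPKM in all others. *Mlst8*, a shared mTOR subunit, had a log2 change of 0.21. *Pik3cd*, the catalytic subunit known mainly from white blood cells, had a log2 change of 0.57 (standard error 0.53), and its highest values were in rFGF4 mouse 1 (6.42 FPKM), vehicle mouse 5 (2.88 FPKM) and rFGF4 mouse 2 (2.65 FPKM), as for the macrophage genes.

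The list of FoxO partners and modifiers held 32 genes, 31 of them tested. The log2 change was above 0 in 29 and below 0 in 2 (median 0.18), beside 67.1% of all tested genes above 0. With a common median ratio it was above 0 in 23 and below 0 in 8 (median 0.08), beside 47.5% of all tested genes above 0. Beside 4.62% of all tested genes, none of the 31 reached an unadjusted p under 0.05. Those with the smallest p were *Foxk1*, a forkhead factor that binds related sites (log2 change 0.46, standard error 0.21), *Ywhag*, a 14-3-3 protein (1.01, standard error 0.46), the acetyltransferase *Ep300* (0.25, standard error 0.14) and the 14-3-3 protein *Ywhae* (0.28, standard error 0.15). Their limma unadjusted p values ran from 0.0555 to 0.103, with adjusted p = 0.918. *Ywhag* had 23.5, 20.3, 7.15 and 11.96 FPKM in rFGF4 mice 1, 2, 3 and 5, and 4.47, 4.94, 5.09 and 15.8 FPKM in vehicle mice 2, 3, 4 and 5. Vehicle mouse 5, which stood apart, was inside the rFGF4 range, and without it and rFGF4 mouse 1 the log2 change of *Ywhag* was 1.17 (limma unadjusted p = 0.0114). The AMPK catalytic subunits *Prkaa1* and *Prkaa2* had log2 changes of 0.28 and 0.05, with standard errors of 0.19 and 0.18.

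Of 44 FoxO target genes, 43 were tested, and 6 had an unadjusted p under 0.05 (14%, beside 4.62% of all tested genes). All 6 were higher in rFGF4-treated mice, and 5 passed the study's threshold for higher genes, beside 1.09% of all tested genes. Of the list, 31 genes were above and 12 below 0, beside 67.1% of all tested genes above 0, and the median log2 change was 0.14, beside 0.09. With a common median ratio, 26 were above and 17 below 0, beside 47.5% of all tested genes above 0. Every adjusted p was at least 0.918 (limma). The list was chosen with results of these libraries known, and its counts are a description. With a common median ratio, 4 had an unadjusted p under 0.05 (4.72% of all tested genes), and without rFGF4 mouse 1 and vehicle mouse 5 the number was 6 of 42 (5.98% of all tested genes). With a block for shared mouse numbers it was 4 (2.6% of all tested genes).

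*Txnip*, which encodes a thioredoxin-binding protein that restrains glucose uptake and whose forkhead element is shown above, had the smallest p of the targets. Its FPKM was 230, 237, 179 and 154 in rFGF4 mice 1, 2, 3 and 5, and 101, 112, 101 and 147 in vehicle mice 2, 3, 4 and 5. All rFGF4-treated mice lay above all vehicle-treated mice, as they did with a common median ratio, but not at the same FPKM sum. For *Txnip* the log2 change was 0.79 (standard error 0.19, limma unadjusted p = 0.00329), and it was 0.70 to 0.91 with 1 mouse left out. With a block for shared mouse numbers it was 0.66 (limma unadjusted p = 0.0743). An antisense gene overlaps its exons but reached no more than 1.08 FPKM.

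*Igfbp1*, a binding protein of insulin-like growth factors and a classical FoxO target with an insulin response sequence in the window shown above, had 10.3, 12.6, 10.7 and 8.10 FPKM in rFGF4 mice 1, 2, 3 and 5. In vehicle mice 2, 3, 4 and 5 its FPKM was 8.99, 2.05, 2.96 and 2.99. Vehicle mouse 2 alone reached the rFGF4 range, and the log2 change of *Igfbp1* was 1.27 (standard error 0.35, limma unadjusted p = 0.00600). *Insr*, the insulin receptor, had 3.87, 1.496, 1.04 and 4.45 FPKM in rFGF4 mice 1, 2, 3 and 5 and 0.506 to 1.01 FPKM in vehicle-treated mice. The groups of *Insr* did not overlap under any of the scalings, although rFGF4 mouse 3 was just above vehicle mouse 5. Its log2 change was 0.99 (standard error 0.32, limma unadjusted p = 0.0148).

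*Pdk4*, the kinase that inactivates pyruvate dehydrogenase, had 20.3, 30.8, 16.1 and 10.8 FPKM in rFGF4 mice 1, 2, 3 and 5. In vehicle mice 2, 3, 4 and 5 its FPKM was 3.13, 15.7, 8.82 and 4.86. Vehicle mouse 3 exceeded rFGF4 mouse 5, and the log2 change of *Pdk4* was 1.28 (standard error 0.46, limma unadjusted p = 0.0232). Without both libraries that stood apart, it was 1.08 (limma unadjusted p = 0.107), and leaving out rFGF4 mouse 1 or 2 or vehicle mouse 2 or 5 alone raised its p above 0.05, to at most 0.0633. *Ulk1* and *Atg14* act at the start of autophagy. *Ulk1* had between 11.5 and 13.5 FPKM with rFGF4 and between 9.16 and 10.5 FPKM with vehicle. The groups of *Ulk1* did not overlap except with a common median ratio, and the log2 change was 0.32 (standard error 0.10, limma unadjusted p = 0.0124), below the fold change of the study's threshold. With a common median ratio it was 0.20 (limma unadjusted p = 0.148). *Atg14* had 4.53, 4.64, 4.36 and 1.27 FPKM in rFGF4 mice 1, 2, 3 and 5 and 1.08 to 2.96 FPKM in vehicle-treated mice. The log2 change of *Atg14* was 0.78 (standard error 0.34, limma unadjusted p = 0.0497), and its p stayed under 0.05 only without rFGF4 mouse 5 or vehicle mouse 3, reaching at most 0.118 when any other mouse was left out.

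The remaining targets did not pass. Among those of gluconeogenesis, *G6pc* (log2 change 0.83, standard error 0.44) and *Pck1* (0.59, standard error 0.44) had estimates above 0 but spread widely between libraries. Of 7 liver marker genes, 6 had a log2 change above 0 (median 0.60), beside 67.1% of all tested genes. The study's threshold for higher genes was passed by 2 of the 7 (*Apoa1* and *Serpina1a*), beside 1.09% of all tested genes. The summed FPKM of the liver genes was 277 to 535 under rFGF4 and 185 to 296 under vehicle. Their part in the values of *Igfbp1*, *G6pc* and *Pck1*, which liver also expresses, was not tested. *G6pc* averaged 271 ± 143 FPKM (SD, n = 4) under rFGF4 and 139 ± 41.2 FPKM (SD, n = 4) under vehicle. Among antioxidant targets, the log2 change of *Sod2* was -0.27 (standard error 0.21), that of *Cat* -0.03 (0.31) and that of *Prdx3* -0.01 (0.18). Among targets of apoptosis, the log2 change was 0.14 (standard error 0.25) for *Bcl2l11* and 0.17 (0.44) for *Bbc3*. For the cell cycle inhibitors *Cdkn1a* and *Cdkn1b* it was 0.28 (standard error 0.52) and 0.27 (0.14).

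**Figure D4:**
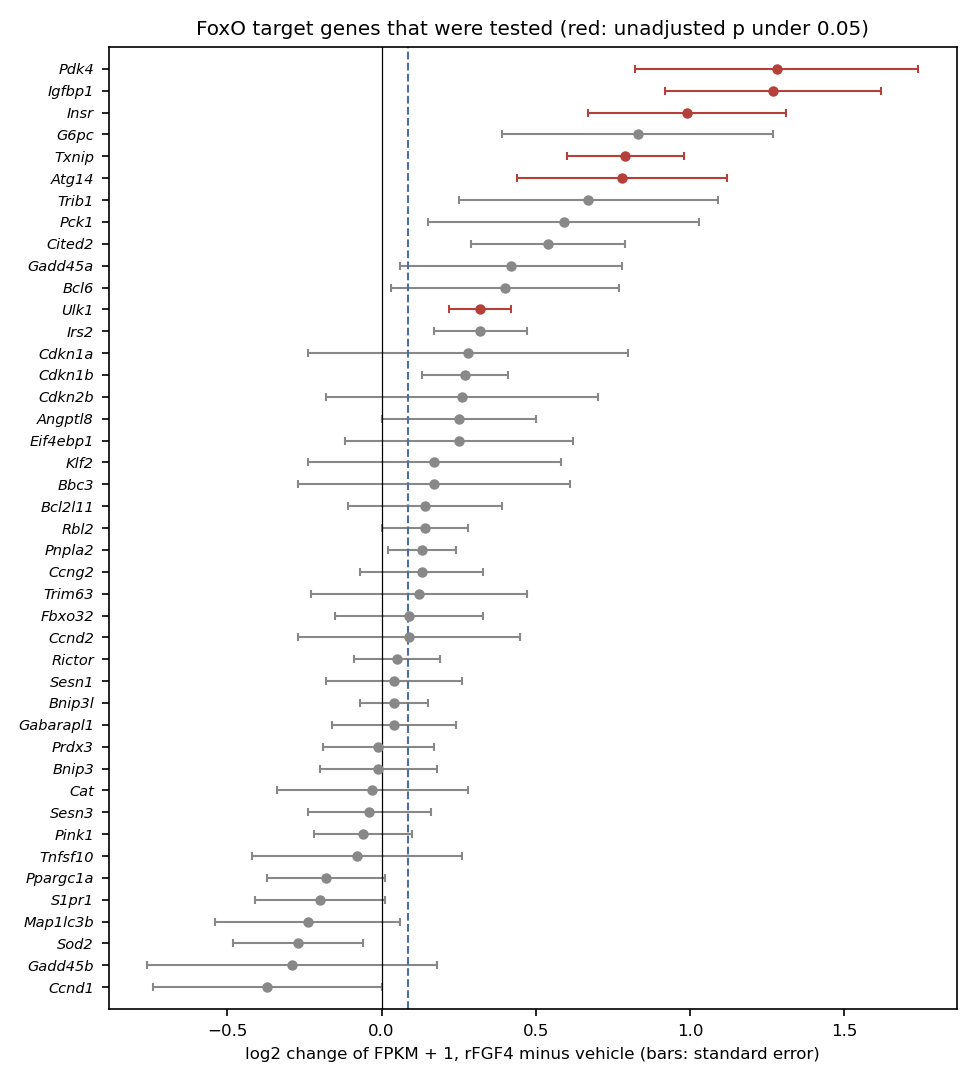
Log2 change of FPKM + 1 (horizontal axis, rFGF4 minus vehicle) of the 43 tested FoxO target genes, ordered by size; bars are standard errors from limma, and the dashed line is the median of all tested genes, 0.09. The 6 red genes with an unadjusted p under 0.05 are all higher in rFGF4-treated mice, and 31 of the 43 genes lie above 0.

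Of 18 listed AKT substrates, 17 were tested, and 2 had an unadjusted p under 0.05 (11.8%, beside 4.62% of all tested genes). They were *Foxo3*, given above, and *Acly*, which makes cytosolic acetyl-CoA for lipid synthesis. *Acly* had 37.5, 34.2, 30.9 and 23.8 FPKM in rFGF4 mice 1, 2, 3 and 5, and 22.1, 18.7, 24.8 and 24.7 FPKM in vehicle mice 2, 3, 4 and 5. In rFGF4 mouse 5 it was within the vehicle range, and the log2 change was 0.46 (standard error 0.16, limma unadjusted p = 0.0226), with p up to 0.0630 without rFGF4 mouse 1 or 2 or vehicle mouse 3. *Tbc1d1*, a Rab GTPase-activating protein of glucose transporter traffic, had between 11.4 and 13.0 FPKM with rFGF4 and between 9.64 and 10.9 FPKM with vehicle. The groups did not overlap as deposited but did under both other scalings, and the log2 change of *Tbc1d1* was 0.22 (standard error 0.10, limma unadjusted p = 0.0519). The median log2 change of the substrates was 0.17, with 15 above and 2 below 0, beside 67.1% of all tested genes above 0. With a common median ratio 13 were above and 4 below 0, beside 47.5% of all tested genes above 0.

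Beside 67.1% of all tested genes, 4 of 14 genes in the list of SGK1 substrates and distal sodium transport were above 0. The other 10 were below 0, and the list had a median log2 change of -0.06. Its median was -0.18 with a common median ratio and 0.14 after scaling to the same FPKM sum, so its sign depended on the scaling. Beside 4.62% of all tested genes, no gene of it had an unadjusted p under 0.05. *Scnn1g*, the gamma subunit of ENaC, had 9.78, 13.7, 12.2 and 17.0 FPKM in rFGF4 mice 1, 2, 3 and 5, and 18.5, 24.2, 17.4 and 12.5 FPKM in vehicle mice 2, 3, 4 and 5. Its log2 change was -0.42 (standard error 0.22, limma unadjusted p = 0.0898). *Wnk1*, a kinase upstream of the sodium chloride cotransporters, had a log2 change of -0.29 (standard error 0.16). For *Slc9a3*, the proximal sodium-hydrogen exchanger, it was 0.52 (standard error 0.43), and for *Ndrg1*, a direct SGK1 substrate, 0.23 (standard error 0.20). Markers of the distal nephron lay on the same side as deposited. Of 8 collecting duct genes, 8 had a log2 change below 0 (median -0.23, and 4 of 8 when scaled to the same FPKM sum), as had 4 of 4 distal convoluted tubule genes (median -0.39, and 3 of 4 at the same sum). Without rFGF4 mouse 1 and vehicle mouse 5 the median of the latter was -0.13. *Scnn1g* and *Slc12a3* belong both to this list and to those marker lists. Summed, the collecting duct genes held 250 to 409 FPKM in the rFGF4 group against 294 to 439 FPKM in the vehicle group, and the distal convoluted tubule genes 56.1 to 318 FPKM against 173 to 337 FPKM. The part of cell numbers in these values was not tested.

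*Sgk1* is itself induced by corticosteroids, whose part in its level here was not tested. Some but not all other genes of that response were highest in rFGF4 mice 2 and 3, as *Sgk1* was. Of 15 genes in this list, 15 were tested, with 12 above and 3 below 0, beside 67.1% of all tested genes above 0. The median log2 change of the list was 0.30, and 2 of its genes had an unadjusted p under 0.05 (13.3%, beside 4.62% of all tested genes). *Fkbp5*, a co-chaperone of the glucocorticoid receptor and one of its best known targets, had 22.8, 33.3, 47.7 and 18.8 FPKM in rFGF4 mice 1, 2, 3 and 5, and 13.2, 17.1, 13.1 and 12.7 FPKM in vehicle mice 2, 3, 4 and 5. The groups did not overlap except with a common median ratio, and the log2 change of *Fkbp5* was 0.995 (standard error 0.27, limma unadjusted p = 0.00599). *Errfi1*, a feedback inhibitor of the EGF receptor, had 142, 271, 358 and 73.4 FPKM in rFGF4 mice 1, 2, 3 and 5 and 58.3 to 110 FPKM in vehicle-treated mice. Its log2 change was 1.20 (standard error 0.47, limma unadjusted p = 0.0333), and p was under 0.05 in 3 of 8 fits with 1 mouse left out (without rFGF4 mouse 1 or 5 or vehicle mouse 3) and up to 0.0860 in the others. *Tsc22d3*, which encodes GILZ, and *Zbtb16* had log2 changes of 0.58 (standard error 0.27) and 0.44 (standard error 0.24), and both were highest in rFGF4 mice 2 and 3. Other induced genes had other orders: *Klf9* was 10.5 FPKM in rFGF4 mouse 3, below the vehicle range of 14.9 to 21.1 FPKM, and *Mt1* and *Mt2* were highest in rFGF4 mouse 1, at 177 and 438 FPKM, with 67.4 and 114 FPKM in rFGF4 mouse 3. The summed FPKM of the list was 1090 in rFGF4 mouse 1, 1085 in mouse 2, 1060 in mouse 3 and 545 in mouse 5, against 549 to 781 with vehicle. The receptors themselves had log2 changes of 0.21 (*Nr3c1*, standard error 0.22) and -0.05 (*Nr3c2*, standard error 0.17).

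Of 12 immediate early genes, 11 were tested and 11 had a log2 change above 0, beside 67.1% of all tested genes (median 0.84, and 0.72 with a common median ratio). An unadjusted p under 0.05 was found in 1 of them (9.09%, beside 4.62% of all tested genes). That gene was *Dusp1*, a phosphatase of MAP kinases that glucocorticoids also induce, with 13.3, 35.4, 37.2 and 11.6 FPKM in rFGF4 mice 1, 2, 3 and 5 and 7.54 to 11.3 FPKM in vehicle-treated mice. Its log2 change was 1.08 (standard error 0.39, limma unadjusted p = 0.0221), its exons overlap *Ergic1* on the opposite strand (up to 10.1 FPKM), and its groups did not overlap except with a common median ratio. Without rFGF4 mouse 2 or 3 or vehicle mouse 4, its p was up to 0.0594. *Egr1*, *Fos* and *Junb* had log2 changes of 1.85, 1.21 and 1.18, with standard errors of 0.85, 0.71 and 0.70. The exons of *Junb* overlap *Prdx2* on the opposite strand, which reached 53.5 FPKM, about the highest level of *Junb* itself (53.8 FPKM). *Egr1* was 1.36 FPKM in rFGF4 mouse 5 and 16.1 to 26.3 FPKM in the other rFGF4-treated mice, and 9.37 FPKM in vehicle mouse 5 and 0.865 to 2.04 FPKM in the other vehicle-treated mice. In rFGF4 mouse 5, *Sgk1*, *Fos*, *Egr1* and *Dusp1* were all at the lowest value of their group. The part of tissue handling in the levels of these fast transcripts and of *Sgk1* was not tested.

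**Figure D5:**
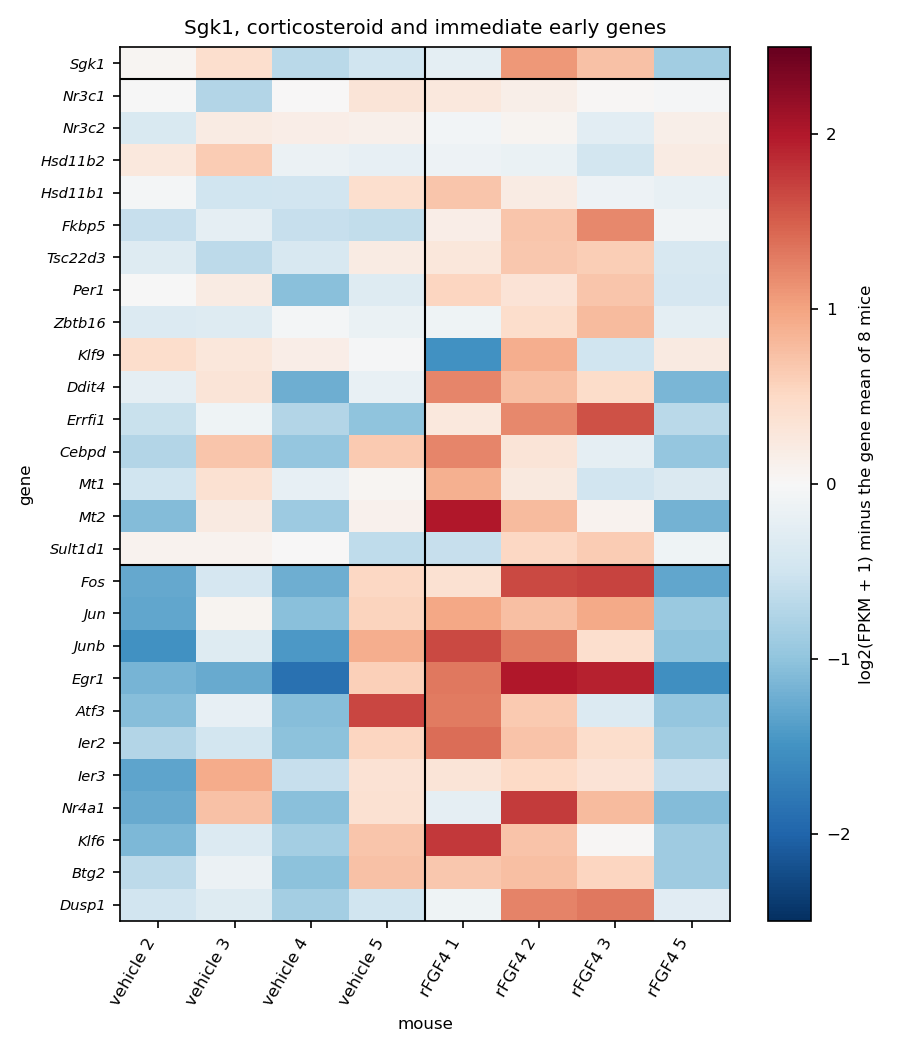
Log2(FPKM + 1) minus the mean of the 8 mice (colour scale, red above and blue below the mean) for *Sgk1* (top row), 15 corticosteroid receptor and induced genes (middle) and 11 tested immediate early genes (bottom), with the vehicle-treated mice to the left and the rFGF4-treated mice to the right of the vertical line. *Sgk1*, *Fkbp5*, *Errfi1* and *Dusp1* are highest in rFGF4 mice 2 and 3, and *Sgk1*, *Fos*, *Egr1* and *Dusp1* are lower in rFGF4 mouse 5 than in the other rFGF4-treated mice.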

How the data were processed

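Kidney RNA was sequenced in 8 libraries, 4 per group, and grouped by the treatment or genotype label. The authors assembled mapped reads with StringTie, merged the transcripts with gffcompare and deposited FPKM per gene, with 0.0001 in place of 0; the submitters' notes also list HISAT2 2.0, Bowtie 0.12.2, StringTie 1.3.0 and build mm8. The table names no build, so positions were taken by gene identifier from GENCODE M21 on GRCm38, in which 55141 identifiers were found. The authors' own fold changes, p-values and q-values from edgeR were not used. edgeR needs counts, so limma 3.58.1 (R 4.3.3) was fitted to log2(FPKM + 1), with a trend in the prior variance, over all 15150 genes with at least 0.5 FPKM in 4 libraries. The genes, lists and tests were chosen with earlier results of these data known. The text names the 8 members, from each list other than the cell type markers the 4 genes with the smallest p and any past the threshold, and the 3 genes most like *Foxo1*, *Foxo3*, *Akt1* and *Sgk1*. Gluconeogenic, antioxidant, apoptotic and cell cycle targets, *Bcl2l11*, *Prkaa1*, *Prkaa2*, *Nr3c1*, *Nr3c2*, *Klf9*, *Mt1*, *Mt2*, *Slc12a3*, *Apoa1* and *Serpina1a* were named by function or pattern after their values were seen. The fit was tested on simulated data. Figures were drawn with matplotlib 3.10.9. Alternatives were another pseudocount (0.1), 2 other filters, 2 scalings, no variance trend, array weights, a block for shared mouse numbers and leaving out each mouse; leaving out 2 libraries together was added after seeing the data. Some genes of the lists are not reported here.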

Additional observations from a re-analysis of the deposited data

Results flagged for a closer look

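In 74 groups of 4 libraries, 4 contained a mouse set apart from the others by more of the group's log2(FPKM + 1) range than Dixon's 95% limit for 4 values allows, and chance gives about 3.7. No member gene was among them. For *Ywhag* the gap of vehicle mouse 5 was 0.905 of the range (15.8 FPKM against 4.47 to 5.09). For *Fkbp5* it took 0.870 in vehicle mouse 3 (17.1 FPKM against 12.7 to 13.2). In rFGF4-treated mice it took 0.901 for *Pik3cb* in mouse 3 (3.02 FPKM against 1.351 to 1.479) and 0.945 for *Atg14* in mouse 5 (1.27 FPKM against 4.36 to 4.64).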

How the results depend on the processing

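Of the log2 changes of the 7 tested members, 117 of 118 values under the alternatives were above 0. The exception was *Akt1* with the replicate block, at -0.036. *Foxo1* passed an unadjusted p of 0.05, and the study's threshold, with array weights (0.60), the replicate block (0.59) and the same FPKM sum (0.65). It also passed both without rFGF4 mouse 1 (0.61), and without rFGF4 mouse 1 and vehicle mouse 5 (0.61). With 1 mouse left out *Foxo1* ran from 0.26 to 0.61. *Foxo3* did not pass after scaling to a common median ratio (0.32) or with the replicate block (0.45), and at the same FPKM sum it was 0.65. *Txnip*, *Ulk1*, *Pdk4*, *Atg14* and *Acly* had a limma unadjusted p above 0.05 with the replicate block, from 0.0743 to 0.118. Mice of the same number did not deviate together (r across genes of -0.229, -0.155 and -0.393 for numbers 2, 3 and 5), so the numbers are not read as pairs.

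Genes past the study's threshold numbered 490 with array weights, 348 with a pseudocount of 0.1, 531 with the same FPKM sum and 181 to 565 with 1 mouse left out (565 without rFGF4 mouse 5). Genes with an unadjusted p under 0.05 numbered 1817 with array weights, 1232 with no filter, 394 with the replicate block, 1152 with the same sum and 428 (without rFGF4 mouse 2) to 1412 (without rFGF4 mouse 5) with 1 mouse left out. An adjusted p under 0.05 (limma) was found for 1 gene with no filter and for 0 to 1 with 1 mouse left out. Genes whose groups did not overlap numbered 1932 without rFGF4 mouse 1 and vehicle mouse 5 and 660 to 1648 with 1 mouse left out (1648 without rFGF4 mouse 5 and 1606 without vehicle mouse 5). Smaller groups overlap less often by construction, so these counts are not comparable with the 504 of all 8 mice.

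Of listed genes with an unadjusted p under 0.05, array weights gave 5 FoxO modifiers, 10 FoxO targets, 4 AKT substrates, 2 SGK1 substrates, 4 corticosteroid genes and 8 immediate early genes, with 12% of all tested genes called. The same FPKM sum gave 2, 10, 6, 0, 4 and 2 in that order, with 7.63% of all tested genes. The common median ratio gave 1 FoxO modifier, 1 AKT substrate and 1 corticosteroid gene, the replicate block 1 AKT substrate (and 10 of 11 immediate early genes above 0, median 0.48, and 2 of 4 distal convoluted tubule genes below 0, median 0.04), a minimum of 1 FPKM in all libraries 1 FoxO modifier, and leaving out both libraries 1 FoxO modifier and 1 SGK1 substrate. With 1 mouse left out the numbers ran from 0 to 4 for modifiers, 4 to 10 for targets, 1 to 3 for AKT substrates, 0 to 2 for SGK1 substrates, 1 to 7 for corticosteroid genes and 0 to 7 for immediate early genes, with 2.91% to 9.45% of all tested genes (9.45% without rFGF4 mouse 5). The cause of these moves was not tested. *Sgk3* was not tested under the stricter filter, and *Foxo6* had a value (0.018) only with no filter. With no counts, the depth that limits these values is unknown.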
